A study of Mus musculus with 15 samples.

Results

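The genes described here encode the subunits of neurotransmitter receptors. They were chosen by symbol alone, as the AMPA (Gria), kainate (Grik), NMDA (Grin1, Grin2 and Grin3) and metabotropic (Grm) glutamate receptor genes, the GABA-A receptor genes (Gabr followed by a subunit letter), the nicotinic acetylcholine receptor genes (Chrn) and the serotonin receptor genes (Htr). The rule found 73 of the 22035 genes of the deposited gene table. They comprise 4 AMPA, 5 kainate, 7 NMDA, 8 metabotropic glutamate, 19 GABA-A, 16 nicotinic and 14 serotonin receptor genes.

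All libraries came from male, wildtype TT2 mouse embryonic stem cells, a line derived from the inner cell mass of a C57BL/6 x CBA blastocyst, and the groups differed only in what was measured and in the number of cells put in. Native ChIP-seq, in which nuclease-digested chromatin is precipitated without crosslinking, gave H3K9me3 from 1000 cells (3 libraries, a, b and c), 10000, 100000 and 1000000 cells (1 library each), H3K27me3 from 1000, 10000 and 100000 cells (1 library each), H3K4me3 from 5000, 10000 and 100000 cells (1 library each) and panH3, which takes in histone H3 with any modification, from 1000 cells (2 libraries, a and b). Ribosomal RNA-depleted total RNA from 1000 cells gave 1 RNA library. Nothing in the labels says that the libraries of a group came from separate cultures, so a p-value measures the spread between these libraries, which may be technical, and every comparison other than H3K9me3 against panH3 has 1 library a group and no replicate check.

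Fast signalling at synapses runs through ligand-gated ion channels, which are assembled from the AMPA, kainate and NMDA subunits for glutamate, the GABA-A subunits for GABA, the nicotinic subunits for acetylcholine and Htr3a and Htr3b for serotonin. The metabotropic glutamate receptors and the other serotonin receptors are G-protein-coupled receptors. In embryonic stem cells many genes of later development are silent and carry H3K27me3, the mark set by Polycomb repressive complex 2, often on CG-rich promoters that also carry H3K4me3, a mark of start sites, while H3K9me3 marks heterochromatin and repeats.

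Depth ranged from 13.03 to 45.5 M reads for the libraries counted in 2 kb bins, and was 1.86, 1.07 and 16.6 M reads for H3K4me3 from 5000, 10000 and 100000 cells. All values are RPKM, read density scaled to window length and to sequencing depth. All 12 pluripotency genes checked had at least 1 RPKM of RNA (Pou5f1 81.38 RPKM), against 2 of 12 fibroblast, 2 of 8 muscle and 2 of 10 neural progenitor genes. Of 11 neuron genes measured 7 reached 1 RPKM, led by Stmn2 at 71.99 RPKM and Tubb3 at 25.66 RPKM, and whether cells with neuronal features had a part in the receptor RNA was not tested. The 8 genes of the REST repressor complex, which holds neuronal genes silent in other cells, all reached 1 RPKM (Rest 50.68 RPKM). In every library counted in bins, chromosomes 1, 8 and 11 had 1.30 to 1.65 times the density of the other autosomes, panH3 included, and some H3K27me3 values on these chromosomes are also given divided by their panH3 ratio.

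The promoters of 6 receptor genes are shown because they differ in CG content, a property the choice of genes did not use, and in the marks and RNA described below. Each runs from 250 bases before to 50 bases after the RefSeq start on build GRCm38.p6, 5′ to 3′ along the gene, with every CG dinucleotide in capitals. They come from chr4:125490446-125490745 (plus strand) for Grik3, chr7:63212477-63212776 (minus strand) for Chrna7, chr11:50850435-50850734 (plus strand) for Grm6, chr13:105443443-105443742 (plus strand) for Htr1a, chr5:65966874-65967173 (plus strand) for Chrna9 and chr1:86111931-86112230 (minus strand) for Htr2b.
Grik3: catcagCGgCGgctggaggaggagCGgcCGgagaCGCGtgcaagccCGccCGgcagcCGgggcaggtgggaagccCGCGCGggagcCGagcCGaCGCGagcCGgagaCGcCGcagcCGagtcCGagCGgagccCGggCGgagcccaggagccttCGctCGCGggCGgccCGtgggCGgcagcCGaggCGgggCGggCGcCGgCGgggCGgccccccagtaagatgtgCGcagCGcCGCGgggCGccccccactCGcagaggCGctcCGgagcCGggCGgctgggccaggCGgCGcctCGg
Chrna7: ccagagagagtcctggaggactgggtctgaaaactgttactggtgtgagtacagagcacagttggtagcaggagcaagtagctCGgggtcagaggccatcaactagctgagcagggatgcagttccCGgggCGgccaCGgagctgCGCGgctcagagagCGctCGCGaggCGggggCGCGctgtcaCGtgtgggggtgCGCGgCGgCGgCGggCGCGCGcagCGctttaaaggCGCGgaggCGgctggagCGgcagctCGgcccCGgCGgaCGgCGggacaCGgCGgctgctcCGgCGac
Grm6: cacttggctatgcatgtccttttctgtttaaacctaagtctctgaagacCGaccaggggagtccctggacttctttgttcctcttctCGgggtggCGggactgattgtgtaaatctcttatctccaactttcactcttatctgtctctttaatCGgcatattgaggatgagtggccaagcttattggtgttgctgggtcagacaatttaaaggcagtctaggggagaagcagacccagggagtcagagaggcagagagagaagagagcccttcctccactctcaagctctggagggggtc
Htr1a: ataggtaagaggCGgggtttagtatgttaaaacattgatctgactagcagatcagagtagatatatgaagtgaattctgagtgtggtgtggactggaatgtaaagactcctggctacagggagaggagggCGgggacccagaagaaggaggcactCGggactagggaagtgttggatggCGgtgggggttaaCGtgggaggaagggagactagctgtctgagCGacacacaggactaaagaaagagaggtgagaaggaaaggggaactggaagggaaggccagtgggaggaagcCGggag
Chrna9: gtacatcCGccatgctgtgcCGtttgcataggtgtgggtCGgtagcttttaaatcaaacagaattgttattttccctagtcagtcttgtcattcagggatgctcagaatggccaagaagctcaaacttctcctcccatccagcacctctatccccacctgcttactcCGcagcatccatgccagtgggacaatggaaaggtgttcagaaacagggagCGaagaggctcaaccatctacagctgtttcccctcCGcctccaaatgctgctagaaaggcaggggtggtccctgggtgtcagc
Htr2b: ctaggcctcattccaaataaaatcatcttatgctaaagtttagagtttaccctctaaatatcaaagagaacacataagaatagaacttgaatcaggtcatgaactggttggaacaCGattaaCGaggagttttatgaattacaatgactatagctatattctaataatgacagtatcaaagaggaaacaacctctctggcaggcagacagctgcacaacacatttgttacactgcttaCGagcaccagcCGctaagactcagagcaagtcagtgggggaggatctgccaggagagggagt
The Grik3 promoter holds 50 CG dinucleotides and that of Chrna7 35, while Htr1a has 7, Chrna9 6 and Grm6 and Htr2b 4 each. Grik3 carried both H3K27me3 and H3K4me3 and had RNA, Chrna7 had the highest RNA, Grm6 and Htr1a had high H3K27me3 with few CG dinucleotides, and Chrna9 and Htr2b had RNA with few CG dinucleotides.

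H3K27me3 at start sites was compared with the level at all genes. The deposited values are described as lying within 1 kb of the start site, but they follow the left end of each transcript on the genome whatever its strand. All 1045 pairs of minus-strand transcripts that share a left end had identical values, against 2 of 543 pairs that share a right end. The 26 receptor genes on the plus strand therefore have a start-site value, whereas for the 47 genes on the minus strand the deposited value lies at the 3′ end of the gene and is given as that.

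At 100000 cells 14 of the 26 start sites (53.8%) had at least 1 RPKM of H3K27me3, against 13.5% of the 11078 plus-strand genes. The receptor start sites had a median of 0.60 RPKM at 1000 cells, 1.11 RPKM at 10000 cells and 1.03 RPKM at 100000 cells, against 0.31, 0.31 and 0.30 RPKM over all plus-strand genes. The number of receptor start sites at 1 RPKM or more was 9 at 1000 cells, where 6.81% of all plus-strand genes reached it, and 14 at 10000 cells, where 15.5% did.

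**Figure D1:**
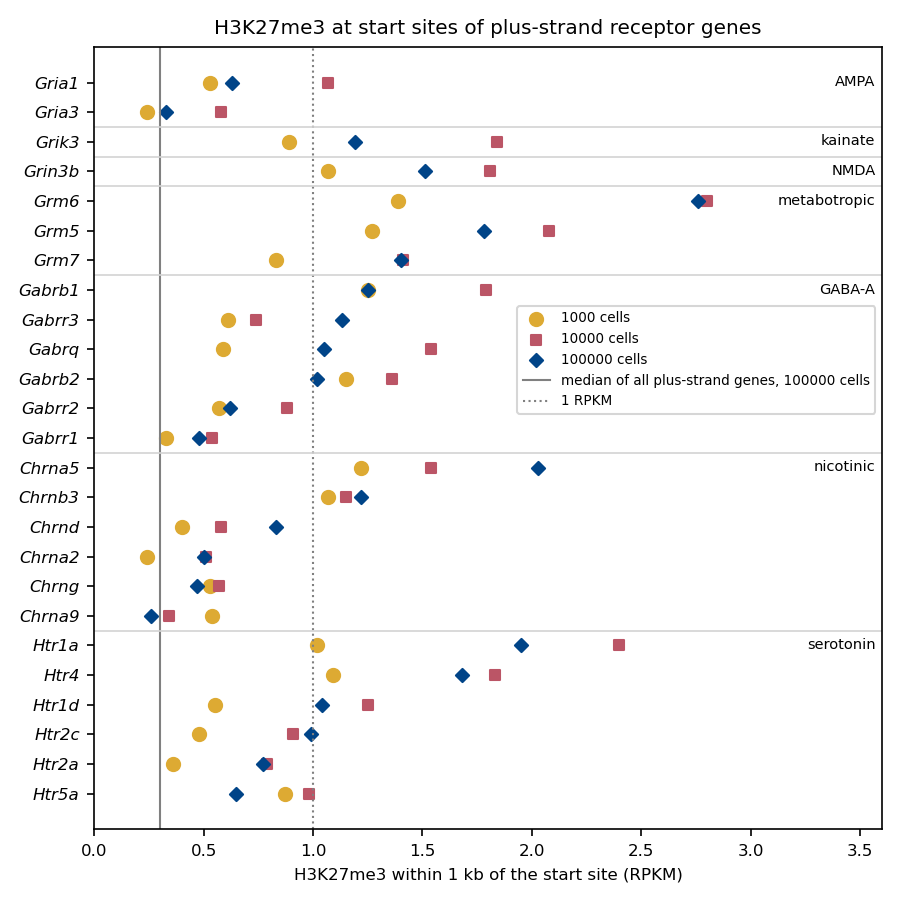
H3K27me3 in RPKM within 1 kb of the start site (horizontal axis) for 25 of the 26 plus-strand receptor genes, with 1 point for each library (circles 1000 cells, squares 10000 cells, diamonds 100000 cells) and genes grouped by receptor class. The solid line is the median of all plus-strand genes at 100000 cells, 0.30 RPKM, and 24 of the 25 diamonds lie to its right.

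The metabotropic glutamate receptors, which couple glutamate to G proteins, are represented here by 3 of their 8 genes, with a median of 1.78 RPKM of H3K27me3 at 100000 cells. Grm6, the receptor of retinal ON bipolar cells, had 1.39 RPKM at 1000 cells, 2.80 RPKM at 10000 cells and 2.76 RPKM at 100000 cells, and was the highest of the 26 start sites. Grm5 had 1.27, 2.08 and 1.78 RPKM and Grm7 0.83, 1.41 and 1.40 RPKM in the same order. All 3 plus-strand genes of this class were above 1 RPKM at 10000 and 100000 cells. Grm6 lies on chromosome 11, and divided by that chromosome's panH3 excess its value at 100000 cells was 1.77 RPKM, below Gabrq, Htr2c, Chrna5, Grm5 and Htr1a on that scale.

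Among the ionotropic glutamate receptors, Grik3, a kainate subunit, had 0.89, 1.84 and 1.19 RPKM at 1000, 10000 and 100000 cells. Grin3b, a glycine-binding NMDA subunit, had 1.07, 1.81 and 1.51 RPKM. Both lay above 1 RPKM in the 2 libraries of more cells. The plus-strand AMPA subunits were lower, with Gria1 at 0.53, 1.07 and 0.63 RPKM and the X-linked Gria3 at 0.24, 0.58 and 0.33 RPKM. Divided by the panH3 ratios of their chromosomes, Gria1 on chromosome 11 had 0.40 RPKM and Gria3 0.70 RPKM at 100000 cells.

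The GABA-A subunits were split. Gabrb1, a beta subunit, had 1.25, 1.79 and 1.25 RPKM at 1000, 10000 and 100000 cells, and Gabrb2 had 1.15, 1.36 and 1.02 RPKM. Gabrr3, a rho subunit, had 0.61, 0.74 and 1.13 RPKM, and Gabrq, the X-linked theta subunit, 0.59, 1.54 and 1.05 RPKM. These 4 of 7 reached 1 RPKM at 100000 cells, while Gabrr2 had 0.62 RPKM and Gabrr1 0.48 RPKM there. Gabrb2 is on chromosome 11, and divided by that chromosome's panH3 ratio it came to 0.65 RPKM, while Gabrq on the X chromosome came to 2.22 RPKM.

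Among the nicotinic subunits, Chrna5, an accessory subunit found in receptors of the autonomic ganglia and brain, had 1.22, 1.54 and 2.03 RPKM, next after Grm6 at 100000 cells. Chrnb3 had 1.07, 1.15 and 1.22 RPKM, and 0.84 RPKM at 100000 cells after division by the panH3 ratio of chromosome 8. The plus-strand subunits of the muscle receptor were below 1 RPKM, with Chrnd at 0.40, 0.58 and 0.83 RPKM and Chrng, its fetal gamma subunit, at 0.53, 0.57 and 0.47 RPKM. Both lie on chromosome 1, and divided by its panH3 ratio they had 0.55 and 0.31 RPKM at 100000 cells. Chrna9, known from the hair cells of the inner ear, had 0.54, 0.34 and 0.26 RPKM and was the one start site below the median of all plus-strand genes at 100000 cells.

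Of the 6 serotonin receptor start sites, 3 reached 1 RPKM at 100000 cells. Htr1a, an inhibitory receptor coupled to Gi, had 1.02, 2.40 and 1.95 RPKM, and Htr4, coupled to Gs, 1.09, 1.83 and 1.68 RPKM. Htr1d had 0.55, 1.25 and 1.04 RPKM, just inside the threshold of 1 RPKM, and Htr2c, with 0.48, 0.91 and 0.99 RPKM, lay just outside it. Htr2a and Htr5a stood at 0.77 and 0.65 RPKM at 100000 cells. With each value divided by the panH3 ratio of its chromosome, 13 of the 26 start sites reached 1 RPKM, Gabrb2 and Chrnb3 dropping out and the X-linked Htr2c entering at 2.09 RPKM. No share of all plus-strand genes was taken on that scale.

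At the 3′ ends of minus-strand genes, H3K27me3 of at least 1 RPKM at 100000 cells was found in 7 of 47 genes (14.9%), against 5.59% of the 10957 minus-strand genes. Grin2c, an NMDA subunit known from the cerebellum, had 2.65, 4.03 and 3.54 RPKM at 1000, 10000 and 100000 cells, the highest value of all 73 genes, and 2.27 RPKM at 100000 cells after division by the panH3 ratio of chromosome 11. Grin1, the subunit common to NMDA receptors, had 1.02, 2.06 and 2.05 RPKM and Grin2d 1.06, 1.90 and 1.80 RPKM. NMDA subunits thus supplied 3 of the 7. Htr1b had 1.28, 1.76 and 1.80 RPKM, in a gene that spans 1160 bp. Chrnb4, Grik4 and Grik5 had 1.52, 1.12 and 1.00 RPKM at 100000 cells. The lowest 3′ end of each class at 100000 cells was that of Grin2a at 0.05 RPKM, Grm8 at 0.12 RPKM, Htr2b at 0.13 RPKM, Chrnb2 at 0.14 RPKM, Gria4 at 0.15 RPKM, Gabra3 at 0.20 RPKM and Grik2 at 0.22 RPKM.

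The table of 2 kb bins, a sample of the genome, gives a second view that does not depend on strand. It holds 389 bins touching 54 of the receptor genes. Bins centred within 2 kb of a receptor start site numbered 10, from 9 genes, and 9 of the 10 (90%) had at least 1 RPKM of H3K27me3 at 100000 cells, against 17.7% of 2948 such bins over all genes. Divided by the panH3 ratio of its chromosome, the Gabra6 bin on chromosome 11 came to 0.685 RPKM, which left 8 of 10, against 16.0% of the 3108 bins near any transcript start. The median of the 10 receptor bins was 1.095 RPKM at 1000 cells, 1.845 RPKM at 10000 cells and 1.69 RPKM at 100000 cells, against 0.38, 0.39 and 0.38 RPKM over all genes. The panH3 median of the same bins was 0.412 RPKM, against 0.430 RPKM over all genes.

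Several minus-strand genes whose 3′ end was low had H3K27me3 at the start. The bin upstream of Gabra5, a subunit of extrasynaptic receptors in the hippocampus, had 1.46, 2.61 and 3.02 RPKM at 1000, 10000 and 100000 cells, with 0.43 and 0.68 RPKM of panH3, while the 3′ end of this gene had 0.25 RPKM at 100000 cells. At Grin2a, a main NMDA subunit of the adult brain, the start-site bin had 1.76, 2.42 and 2.24 RPKM, with 0.20 and 0.26 RPKM of panH3, against 0.05 RPKM at the 3′ end. The pair of bins at the start of Gabrd, the delta subunit of tonic inhibition, had 2.36 and 1.93 RPKM at 100000 cells. Counting error of a single bin of this kind is moderate, with an exact Poisson 95% interval of 1.79 to 2.76 RPKM for Grin2a (88 reads) and 2.51 to 3.62 RPKM for Gabra5 (119 reads). The bins at Chrnb2 (1.22 RPKM) and Gabra6 (1.07 RPKM) were lower, and that of Gabrr3 had 0.53 RPKM.

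H3K27me3 in receptor bins fell off with distance. The median at 100000 cells was 1.245 RPKM from 5 to 2 kb upstream (6 bins), 0.98 RPKM from 2 to 5 kb downstream (8 bins), 0.635 RPKM from 5 to 10 kb (12 bins) and 0.47 RPKM from 10 to 20 kb downstream, where 0 of 28 bins reached 1 RPKM, against 6.57% over all genes. Over all genes the same stretches had medians of 0.46, 0.31, 0.28 and 0.28 RPKM. From 20 to 50 kb downstream the receptor median was 0.48 RPKM, against 0.31 RPKM, and 5 of 79 bins (6.33%) reached 1 RPKM, against 6.35%. The bin 2351 bp inside Grm3, a metabotropic receptor also found on glia, still had 1.27, 1.73 and 2.24 RPKM.

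**Figure D2:**
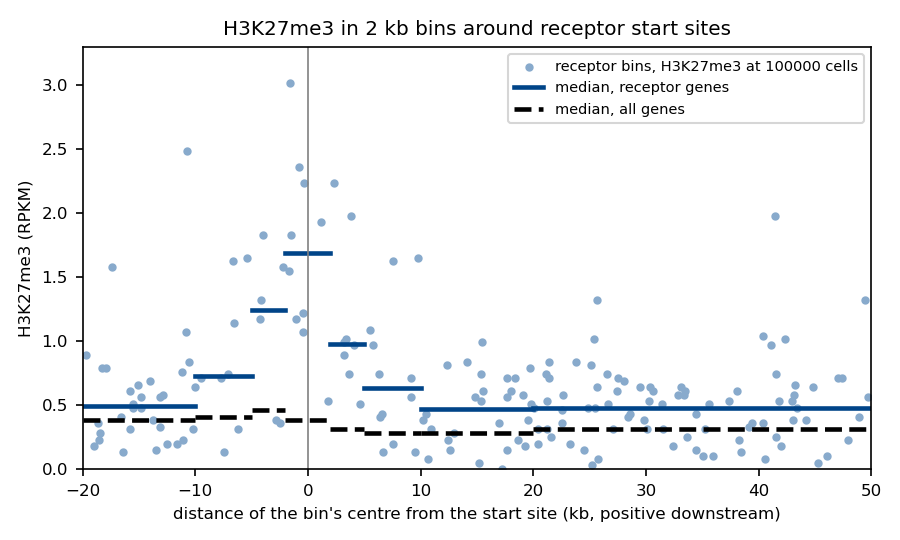
H3K27me3 at 100000 cells in RPKM (vertical axis) of 2 kb bins against the distance of their centre from a receptor start site in kb (positive downstream). Points are receptor bins, of which those near several receptor genes appear once for each gene (186 points, 174 bins), solid segments their medians per stretch and dashed segments the medians over all genes, which differ most within 2 kb of the start, at 1.69 RPKM for receptor genes and 0.38 RPKM for all genes.

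How far 1000 cells gave the values of 100000 cells was the question of the cell-number series. H3K27me3 was lower at 1000 than at 100000 cells at 21 of 26 receptor start sites, against 51.8% of plus-strand genes, with a median difference of -0.52 on the log2(RPKM + 0.1) scale, against -0.05 over all plus-strand genes. No receptor start site was past 2-fold in either direction, while 5.69% of plus-strand genes were at least 2-fold lower and 4.63% at least 2-fold higher. Where the 3 libraries averaged 0.5 RPKM or more, 17 of 21 receptor start sites and 78% of 3596 plus-strand genes were lower. Among these 21 start sites the largest differences were those of Grm6 (-0.94), Htr2a (-0.92), Htr2c (-0.91) and Chrnd (-0.90), and those higher at 1000 cells were Htr5a (0.37), Gabrb2 (0.16) and Chrng (0.14). Below that mean, Chrna9 was higher at 1000 cells by the most of all 26 (0.83). The order of the 26 genes was largely kept, with a Spearman coefficient of 0.83 between 1000 and 100000 cells and 0.88 between 10000 and 100000 cells over 26 genes, measured in the same windows.

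RNA was low in most receptor genes. At least 1 RPKM was measured for 11 of 73 genes (15.1%), against 49.7% of all genes, and the median was 0.12 RPKM, against 0.97 RPKM. RNA of 13 receptor genes (17.8%) was listed at 0, against 21.3% of all genes. A gene used by every cell type, Adar, is listed at 0 too, so a listing at 0 may not be a measured absence. In a bulk library, fewer cells with a transcript and less of it in each cell cannot be told apart.

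The highest receptor RNA was that of Chrna7, the subunit that forms homomeric nicotinic receptors, at 11.33 RPKM. Htr2b, a Gq-coupled serotonin receptor with roles outside the brain, had 7.89 RPKM, but it lies within Psmd1, a proteasome gene on the other strand with 18.89 RPKM of RNA, and the sources used here do not say that reads were counted by strand. Gabrp, the pi subunit of epithelia, had 4.36 RPKM, Chrna9 2.48 RPKM, Gabrg3 2.35 RPKM and Gria4, an AMPA subunit, 1.32 RPKM.

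The kainate receptor genes had the highest share with RNA, 4 of 5 at 1 RPKM or more. Grik3 had 5.81 RPKM, Grik4 3.33 RPKM, Grik5 2.41 RPKM and Grik2 2.34 RPKM, and Grik1 had 0.12 RPKM. Grik4 and Grik5 encode the high-affinity subunits that need a partner such as Grik2 or Grik3 to form a channel. By contrast 0 of 7 NMDA genes and 0 of 8 metabotropic genes reached 1 RPKM, their highest being Grin2b at 0.55 RPKM and Grm4 at 0.43 RPKM. Among the others, 3 of 19 GABA-A, 2 of 16 nicotinic, 1 of 14 serotonin and 1 of 4 AMPA genes did. After Htr2b, the highest serotonin receptor was Htr5b at 0.55 RPKM. With 1 library, differences between classes have no replicate check.

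H3K4me3 was weak at receptor start sites. Its 1 kb windows follow the strand of the gene, and for each gene the window with the highest mean was used. At 100000 cells 1 of 73 genes (1.37%) had at least 5 RPKM, against 21.4% of all genes, and 20 of 73 (27.4%) had at least 2 RPKM, against 43.7%. At 5 RPKM or more there were 8 receptor genes at 5000 cells, against 37.7% of all genes, and 23 at 10000 cells, against 46.9%. Receptor genes had a median of 1.62 RPKM at 5000 cells, 2.81 RPKM at 10000 cells and 1.08 RPKM at 100000 cells, against 2.15, 3.75 and 1.39 RPKM over all genes. In the 5000- and 10000-cell libraries 1 read is worth 0.539 and 0.938 RPKM, so that a typical receptor value there rests on 3 reads, and 14 and 20 receptor genes had none.

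The gene past 5 RPKM was Grm4, with 7.54, 10.31 and 6.20 RPKM at 5000, 10000 and 100000 cells, in a window away from its RefSeq start, where the value at 100000 cells was 1.08 RPKM. Grik3 had 15.62, 32.81 and 4.40 RPKM, the highest receptor values at 5000 and 10000 cells. The exact Poisson 95% intervals at 100000 cells, 5.06 to 7.52 RPKM for Grm4 and 3.45 to 5.53 RPKM for Grik3, overlap, and cover counting error only. Grik4, Chrna7 and Chrnb1, the muscle beta subunit, each had 3.61 RPKM at 100000 cells, Grin2d 3.55 RPKM, Htr1d 3.49 RPKM, and Grm6 and Htr6 3.07 RPKM. For Htr1d the window is likewise away from the RefSeq start, where 0.48 RPKM was found. The lowest values were 0.12 RPKM at Htr2c and 0.18 RPKM at Grm5, Htr2a and Htr2b. The Grm5 window lies inside the gene, away from its RefSeq start, and its other windows had 0.36 and 0.30 RPKM. The Htr2b window is also away from the RefSeq start of that gene, where 0.36 RPKM was found.

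By class, the median H3K4me3 at 5000, 10000 and 100000 cells was 1.62, 8.44 and 2.41 RPKM in kainate genes and 2.69, 2.81 and 1.75 RPKM in NMDA genes. The serotonin receptors had 1.35, 1.41 and 0.75 RPKM and the GABA-A subunits 1.08, 1.88 and 0.72 RPKM, the lowest medians at 100000 cells, while the lowest at 5000 cells was that of the nicotinic genes (0.54 RPKM) and at 10000 cells that of the AMPA genes (0.94 RPKM). At least 2 RPKM at 100000 cells was found in 3 of 5 kainate, 2 of 7 NMDA, 3 of 8 metabotropic, 1 of 4 AMPA, 3 of 19 GABA-A, 4 of 16 nicotinic and 4 of 14 serotonin genes. The genes past it with RNA under 1 RPKM included Chrna4, a main nicotinic subunit of the brain, with 2.69, 8.44 and 2.53 RPKM of H3K4me3, Gabra5 with 3.77, 7.50 and 2.65 RPKM, Gabra2 with 3.23, 5.63 and 2.29 RPKM, Htr1b with 3.77, 13.13 and 2.29 RPKM and Htr7 with 1.62, 6.56 and 2.17 RPKM. Gria4, at 3.23, 8.44 and 2.41 RPKM, was the AMPA gene past it and also the one with RNA. Gria2, the AMPA subunit that sets calcium permeability, had 2.15, 0.00 and 0.36 RPKM.

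RNA and H3K4me3 were only loosely related across receptor genes, with a Spearman coefficient of 0.34 over 73 genes. Chrna7, Grik3 and Grik4 were high in both. Htr2b and Gabrp had RNA with 0.18 (0.36 at the Htr2b RefSeq start) and 0.48 RPKM of H3K4me3 at 100000 cells. Chrnb1 and Grin2d had 3.61 and 3.55 RPKM of H3K4me3 with 0.27 and 0.52 RPKM of RNA.

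**Figure D3:**
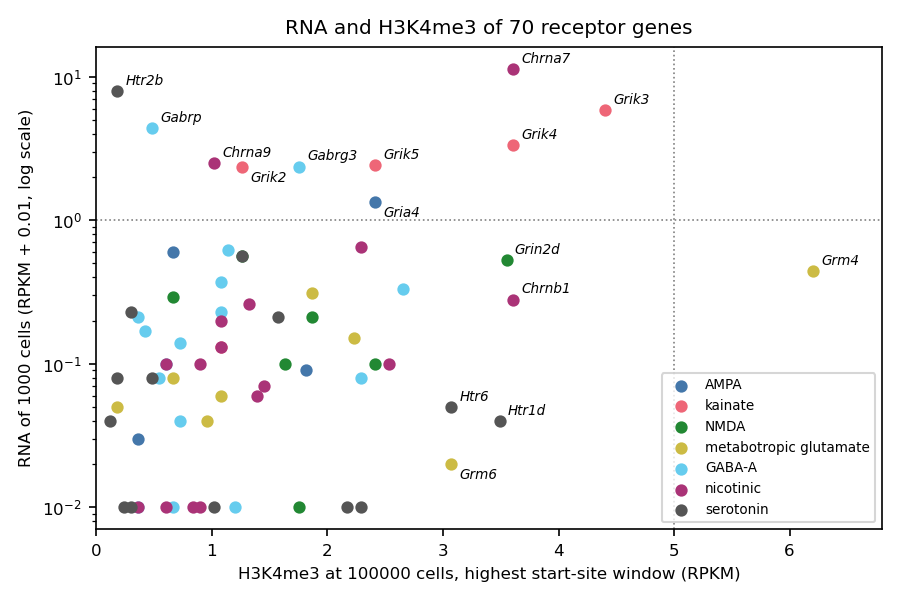
RNA of 1000 cells in RPKM + 0.01 on a log scale (vertical axis) against H3K4me3 at 100000 cells in RPKM (horizontal axis), with 1 point for each of 70 of the 73 receptor genes coloured by class. Dotted lines mark 1 RPKM of RNA and 5 RPKM of H3K4me3, and the 10 genes above the horizontal line include 4 of the 5 kainate genes.

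Set side by side, the 14 plus-strand start sites with at least 1 RPKM of H3K27me3 included 4 with at least 2 RPKM of H3K4me3, namely Chrna5 (2.29 RPKM, and 0.66 RPKM at its RefSeq start), Grik3, Grm6 and Htr1d, and 1 with at least 1 RPKM of RNA, Grik3. The share with H3K4me3 was 28.6%, against 42.5% of 1408 plus-strand genes with at least 1 RPKM of H3K27me3. Of the 12 start sites under 1 RPKM of H3K27me3, 1 had at least 2 RPKM of H3K4me3 (8.33%, against 52.9% of the 8747 other plus-strand genes), and 2, among them Chrna9, had at least 1 RPKM of RNA. Over all plus-strand genes present in both tables, RNA of at least 1 RPKM was found in 21.7% of the genes with H3K27me3 of at least 1 RPKM and in 56.3% of the others.

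Promoter sequence was available for 53 of the 73 genes, and 22 of the 53 (41.5%) held at least 15 CG dinucleotides in 300 bases, against 52.9% of 14816 promoters. Where a gene had several promoters, the one with the most CG dinucleotides was taken, which need not be the start site that was measured. All 6 plus-strand receptor genes with such a CG-rich promoter had at least 1 RPKM of H3K27me3 at 100000 cells (1.04 to 2.03 RPKM, median 1.22 RPKM), against 15.3% of CG-rich plus-strand genes, and 5 of 12 with a CG-poor promoter did (0.26 to 2.76 RPKM, median 0.88 RPKM), against 10.3%. H3K4me3 of at least 2 RPKM was found in 13 of 22 CG-rich receptor genes, against 82.5% of all CG-rich genes, and in 5 of 31 CG-poor ones, against 16.9%. RNA of at least 1 RPKM was found in 5 of 22 CG-rich receptor genes, against 77.2%, and in 5 of 31 CG-poor ones, against 23.2%. These shares have no replicate check. Grik3 and Chrna7, printed above, are CG-rich. Among plus-strand genes with a CG-poor promoter, Grm6 and Htr1a had the highest start-site H3K27me3 at 100000 cells, in values as deposited.

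The motif TATAAA, searched on both strands of these 300 bases, was present in 4 of 53 receptor promoters (7.55%), those of Grin3b, Gabra3, Gabrb2 and Chrnb1, against 12.5% of all promoters.

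Receptor genes that lie together on a chromosome were also set side by side. For the neighbours Gabra5 and Gabrg3 on chromosome 7, RNA was 0.32 and 2.35 RPKM and H3K4me3 at 100000 cells 2.65 and 1.75 RPKM. In the cluster of Gabrb1, Gabra4, Gabra2 and Gabrg1 on chromosome 5, RNA was 0.36, 0.61, 0.07 and 0.03 RPKM. The chromosome 11 genes Gabrb2 and Gabra6 had RNA of 0.22 and 0.00 RPKM, and the X-linked Gabre, Gabra3 and Gabrq 0.13, 0.07 and 0.00 RPKM. In the ganglionic cluster on chromosome 9, Chrna5, Chrna3 and Chrnb4 had 0.64, 0.00 and 0.25 RPKM of RNA, and the neighbouring pair Htr3a and Htr3b, the channel subunits for serotonin, 0.07 and 0.00 RPKM. The pair Chrnd and Chrng on chromosome 1 had 0.06 and 0.12 RPKM of RNA.

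H3K9me3 in receptor genes was compared with panH3, both from 1000 cells, with limma over the 93575 bins in which any of the 5 libraries had reads. Of 388 receptor bins tested, 41 were higher in H3K9me3 than in panH3 (10.6%), against 15.2% of all bins, and 35 were lower (9.02%), against 24.7%. The receptor bins averaged 0.428 ± 0.00873 RPKM of H3K9me3 (SD, n = 3) and 0.417 ± 0.000802 RPKM of panH3 (SD, n = 2), and their median log2 difference was -0.01, against -0.10 over all bins. Outside chromosomes 1, 8 and 11 there were 36 higher (10.2%) and 29 lower (8.22%) of 353 receptor bins, and no share over all bins was taken there. Among bins touching any gene, 7.19% were higher and 45.6% lower. With each library centred on its median, the median difference over all bins moved to 0.08. The counts were then 77 higher and 24 lower of 388 receptor bins, against 20312 higher and 18564 lower of all 93575 bins. Without panH3 library a the median log2 difference of receptor bins was -0.02, and without panH3 library b -0.01, each against -0.10 over all bins. Without H3K9me3 library a there were 53 higher and 60 lower of 388 receptor bins, against 16475 and 25897 of 93561 bins.

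The calls were also counted by RNA. In the 9 receptor genes with at least 1 RPKM of RNA, 8 of 105 bins were higher and 19 lower, against 4.67% higher and 63.8% lower of all bins touching such genes. In the 45 receptor genes under 1 RPKM, 33 of 283 bins were higher and 16 lower, against 11.1% and 17.6% of all bins that touch only such genes. The difference between these 2 sets of receptor genes was not itself tested.

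By class, counts of called bins are to be read against 7.19% higher and 45.6% lower among bins touching any gene. Most receptor genes had RNA under 1 RPKM, and bins touching only such genes had 11.1% higher and 17.6% lower. Those touching a gene with at least 1 RPKM had 4.67% and 63.8%. H3K9me3 averaged 0.50 ± 0.0087 RPKM in 47 AMPA bins, against 0.423 ± 0.00827 RPKM of panH3, with 9 bins higher (19.1%) and 3 lower (6.38%). In 107 bins of the metabotropic genes it averaged 0.434 ± 0.00763 RPKM, against 0.394 ± 0.000198 RPKM of panH3, with 13 higher (12.1%) and 4 lower (3.74%). The 86 GABA-A bins had 0.426 ± 0.0147 RPKM, against 0.413 ± 0.00403 RPKM, with 12 higher (13.95%) and 5 lower (5.81%). Kainate genes had 0.339 ± 0.0126 RPKM in 70 bins, against 0.404 ± 0.0065 RPKM of panH3, with 3 bins higher (4.29%) and 14 lower (20%), a share of lower bins below that of all bins. Nicotinic genes had 0.374 ± 0.0156 RPKM in 16 bins, against 0.527 ± 0.0164 RPKM of panH3, with 0 higher and 5 lower (31.2%) by limma. At an unadjusted p under 0.05 there were 0 higher in nicotinic genes, and 1 with voom weights. The NMDA genes had 3 higher and 4 lower of 39 bins, and the serotonin genes 1 higher and 0 lower of 23 bins by limma. At an unadjusted p under 0.05 there were 0 lower in serotonin genes, and 2 with voom weights. The SD is over the 3 H3K9me3 and the 2 panH3 libraries.

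**Figure D4:**
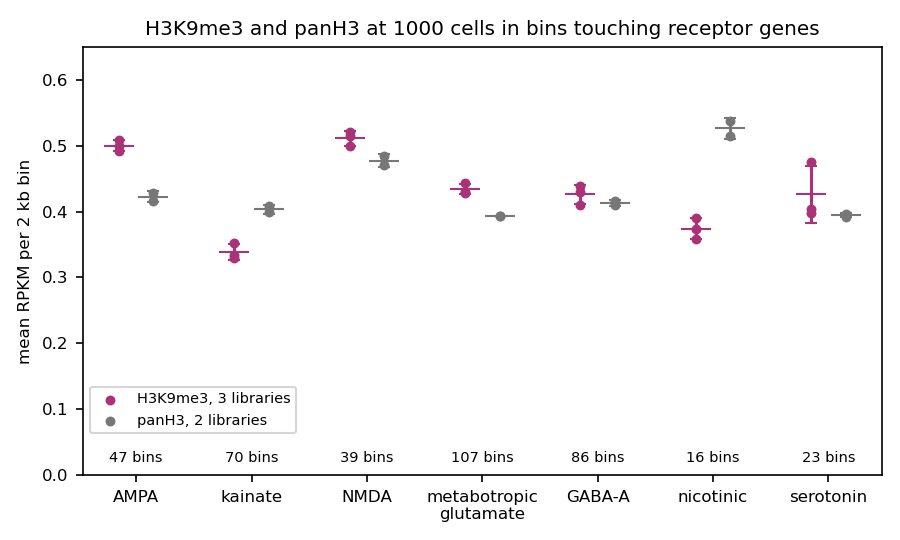
Mean RPKM per 2 kb bin (vertical axis) in bins touching receptor genes of each class (horizontal axis), with H3K9me3 of 1000 cells on the left (3 libraries) and panH3 of 1000 cells on the right (2 libraries). Points are libraries, horizontal marks their mean and error bars the SD, and the libraries of H3K9me3 and panH3 overlap in GABA-A genes and in none of the other 6 classes.

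The bin most enriched in H3K9me3 lies in the body of Gria4 on chromosome 9 (mm9, chr9:4488001-4490000). It had 1.34, 1.39 and 1.40 RPKM of H3K9me3 in libraries a, b and c, 1.46, 1.08 and 0.97 RPKM at 10000, 100000 and 1000000 cells, and 0.43 and 0.39 RPKM of panH3. The log2 difference at 1000 cells was 1.53 ± 0.17 (SE, limma adjusted p = 1.0e-07). Bins in the bodies of Grm8 (1.32 ± 0.21, adjusted p = 1.8e-05), Grm5 (1.17 ± 0.19, adjusted p = 2.1e-05), Gabrg3 (0.99 ± 0.21, adjusted p = 0.00034) and Grm7 (0.97 ± 0.26, adjusted p = 0.0033) came next by limma. These 5 bins lie from 75367 bp (Grm8) to 737409 bp (Grm7) into their genes.

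The bins lowest in H3K9me3 lie in Chrna9 and Chrng. The Chrna9 bin (mm9, chr5:66364001-66366000) had 0.11, 0.07 and 0.11 RPKM of H3K9me3 in the 3 libraries of 1000 cells and 0.58 and 0.57 RPKM of panH3, a log2 difference of -1.79 ± 0.26 (SE, limma adjusted p = 3.7e-06). The Chrng bin (mm9, chr1:89106001-89108000) had 0.11, 0.10 and 0.20 RPKM of H3K9me3 and 0.70 and 0.63 RPKM of panH3, a difference of -1.72 ± 0.26 (adjusted p = 7.5e-06, limma). Of the 2 genes Chrna9 had RNA, at 2.48 RPKM, and Chrng had 0.12 RPKM. A pair of bins in Grik2 (-1.49 ± 0.31, adjusted p = 0.00030, and -1.25 ± 0.26, adjusted p = 0.00028) and 1 each in Chrna7 (-1.17 ± 0.26, adjusted p = 0.00071) and Grm4 (-1.16 ± 0.26, adjusted p = 0.00068) completed the 6 lowest by limma. Within 1 gene the bins differed, as in Grik3, where 6 of 8 were lower, and Gabrb1, where 5 of 19 were higher and 1 lower.

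H3K9me3 in receptor bins was also followed over cell number. The mean was 0.437, 0.426 and 0.420 RPKM in libraries a, b and c of 1000 cells, 0.420 RPKM at 10000, 0.422 RPKM at 100000 and 0.395 RPKM at 1000000 cells. Over all bins, 10000, 100000 and 1000000 cells gave 0.421, 0.421 and 0.414 RPKM.

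H3K27me3 of 1000 cells was also set against panH3 in the same bins, with no test. Over 388 receptor bins the median log2 difference was 0.05, against -0.07 over all bins, and 15 bins (3.87%) were at least 2-fold over panH3, against 2.44%. The mean H3K27me3 was 0.463 RPKM at 1000 cells, 0.470 RPKM at 10000 cells and 0.492 RPKM at 100000 cells, against 0.425, 0.434 and 0.428 RPKM over all bins. Bins touching only genes with RNA under 1 RPKM were no lower than receptor bins. Their median log2 difference was 0.05, 4.35% were at least 2-fold over panH3, and their means were 0.491, 0.560 and 0.540 RPKM. In receptor genes under 1 RPKM of RNA the median was 0.13 and the means were 0.498, 0.512 and 0.541 RPKM. The difference over gene bodies was thus small beside that at start sites, where the median log2 difference from panH3 was 1.18 over 10 bins.

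Genes that work beside these receptors were mixed. Of 14 plus-strand genes for making, loading, taking up and breaking down transmitters, 12 had at least 1 RPKM of H3K27me3 at the start site at 100000 cells, including Slc6a4, the serotonin transporter, at 3.31 RPKM and Gad1, which makes GABA, at 2.12 RPKM. Of 21 other receptor genes on the plus strand (dopamine, adrenergic, muscarinic, purinergic and others) 13 did, led by Drd5 at 2.28 RPKM. Of 23 plus-strand genes of receptor anchoring and auxiliary proteins 5 did. These shares are 85.7%, 61.9% and 21.7%, against 13.5% of all plus-strand genes. RNA of at least 1 RPKM was found in 6 of 24 (25%), 8 of 35 (22.9%) and 19 of 36 (52.8%) genes of these lists, against 49.7% of all genes.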

How the data were processed

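Male TT2 mouse embryonic stem cells were profiled by native ChIP-seq and by RNA sequencing. The submitters' processing notes name BWA, SAMtools and mm9, while versions, counting tool and read filters were not given in the sources used here. The authors deposited RPKM values, 1 column a library, per the file headers. Transcript and exon lengths, other columns the authors deposited, were not tested. Another 2 columns, of samples outside this series, were not used. Strongest windows appear left out, since bins stop at 5 RPKM and H3K4me3 windows at 99.38 RPKM.

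Depth was recovered from the steps of bin and window RPKM values, nearly all of which were whole reads to 2 decimals. H3K27me3 and RNA values per gene gave no such steps, so they carry no interval. H3K27me3 windows labelled as start sites follow the left end of a transcript, so start-site counts used plus-strand genes. Per symbol, the row with the highest mean was used.

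The 3 H3K9me3 and 2 panH3 libraries of 1000 cells were compared on log2(RPKM + 0.1) with limma 3.58.1 in R 4.3.3 (robust, intensity trend, two-sided, Benjamini-Hochberg threshold 0.05) over all bins. The test was also run on 93575 simulated bins, 100 of them changed by 1 log2 unit and 100 by 2. It found 12% and 81% of these, with 0 false calls. Far more bins were called in the data (14224 higher and 23158 lower), so these rates may not apply there. Tables were joined with Python 3.11.15 and pandas 2.3.3. Other comparisons have 1 library a group and no test. Promoters were matched by symbol to RefSeq on GRCm38.p6 (53 of 73). The text names, per class, the highest and lowest genes of each readout, genes with at least 1 RPKM of RNA, the largest differences between 1000 and 100000 cells, the 6 most extreme bins either way and clustered genes. A few member genes enter the counts but are not reported here by name. Members and lists were chosen with earlier results of these data known.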

Additional observations from a re-analysis of the deposited data

How the results depend on the processing

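The counts of receptor bins higher or lower in H3K9me3 than in panH3 stayed within 1.5 times of 41 and 35 under pseudocounts of 1 and 0.01, with no filter on low bins, with bins of at least 0.2 RPKM on average and with voom weights on recovered reads (50 higher and 52 lower, chosen after seeing the data). Centring each library on its median gave 77 higher and 24 lower, against 20312 and 18564 of all 93575 bins. Leaving out 1 library at a time gave 19 to 53 higher and 13 to 60 lower, and where 1 panH3 library was left, it was assumed to vary like the H3K9me3 libraries. The labels do not say whether the replicate letters pair the libraries. The correlation of the a minus b differences over bins was -0.01, which cannot settle it, as counting noise in single bins can hide a shared difference. With the replicate block there were 38 higher and 37 lower, against 13498 and 22529 of all 93575 bins. For the 12 named bins, 142 of 143 alternative fits kept direction and call, and the remaining one, for Grm4 without panH3 library a, lost the call.

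At a threshold of 2 RPKM, 2 of 26 receptor start sites passed for H3K27me3. Taking all 73 genes as deposited, an alternative chosen after the strand pattern was seen, 21 had at least 1 RPKM of H3K27me3 and 47 were lower at 1000 than at 100000 cells. At a threshold of 0.1 RPKM, 37 receptor genes passed for RNA and 36 of 73 were under it, against 6866 of 22035 of all genes. Of the 65 receptor genes with no overlapping gene, 9 had at least 1 RPKM. For H3K4me3, 0 genes passed 5 RPKM with the mean over windows, 0 passed with the window at a RefSeq start, and 0 passed 10 RPKM. Apart from RNA at 0.1 RPKM, no share of all genes was taken at these changed settings, so these counts are no comparison with all genes. The median H3K27me3 over panH3 was 1.18 (log2) in start-site bins. The cause of these shifts was not tested. Other alternatives, including pseudocount, centring and the mean over rows for H3K27me3, kept the direction. At 1.07 and 1.86 M reads, the 10000- and 5000-cell H3K4me3 libraries cannot rank receptor genes with a few reads each.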
